A study of Taxus mairei and Taxus cuspidata and Taxus x media with 9 samples.

Results

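Phospholipase D enzymes cut membrane phospholipids such as phosphatidylcholine at the head group, which releases choline and leaves phosphatidic acid. In plants, phosphatidic acid is both an intermediate of lipid synthesis and a signal, and work in *Arabidopsis* ties these enzymes to abscisic acid responses, wounding, cold and water stress. The plant enzymes fall into a larger group with a calcium-binding C2 domain (the alpha, beta, gamma and delta types) and a smaller group with PX and PH domains (the zeta type), whose activity does not need calcium. The unigenes described here were chosen by annotation, as all those with a gene name that starts with PLD or with the KEGG ortholog phospholipase D, starting from comp14239_c0, a PLD1 unigene selected on its large log2 fold change between *T. media* and *T. mairei*. A unigene is a gene-level cluster of assembled transcripts, and 17 of 33895 met the rule.

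Poly(A) RNA was sequenced from fresh twigs, with 3 libraries each for *T. media*, *T. mairei* and also *T. cuspidata*. The study's methods do not say which parts of the twigs were used. The cultivated trees were 3 years old and grew in one growth chamber regime without any treatment, so species is the only factor. The study's methods mention more trees per species than libraries and do not assign trees to libraries, so the p-values below measure the spread between libraries. Reads of all species were quantified on 1 co-assembly, and differences in transcript level, in how a species' transcripts were assembled and in how its reads matched the shared unigenes cannot be told apart; neither can fewer cells of a type and less RNA per cell.

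Libraries with deposited counts held 32783233 to 44821305 counted reads. *T. mairei* replicate 3 came with TPM and RPKM (both reads per unigene length, scaled to the library) but no counts, so the edgeR fit holds 8 libraries and 2 of *T. mairei*, while TPM are given for all 9, and its CPM (counts scaled to the library total) rest on reads recovered from RPKM. Between species the scales differ. For *T. media* over *T. mairei* the median log2 ratio over unigenes was 0.77 in TPM, 0.26 in CPM and 0.02 in the fit. For *T. mairei* over *T. cuspidata* it was -0.66, -0.01 and 0.06. The TPM and CPM medians cover unigenes of at least 1 TPM on average with reads in both species. The fit median covers all 32624 unigenes tested, so the sets of unigenes differ too. The makeup of the libraries differed as well. The summed level of 67 needle unigenes (light-harvesting, photosystem and Rubisco small subunit names) was 25237 to 45139 TPM in *T. media*, 4485 to 7903 TPM in *T. mairei* and 52978 to 64074 TPM in *T. cuspidata*, and that of 11 wood unigenes (secondary wall names) was 62.9 to 89.7 TPM in *T. media*, 135 to 169 TPM in *T. mairei* and 49.5 to 57.4 TPM in *T. cuspidata*. *T. mairei* thus stood apart on both lists, and their part in the differences below was not tested.

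Of the 17 unigenes, 14 carry a PLD name, namely 6 PLD1, 3 PLDBETA1, 2 PLDDELTA and 3 PLDP1. PLD1 is the name that rice and castor bean use for an alpha-type enzyme, PLDBETA1 and PLDDELTA are C2-type enzymes of *Arabidopsis*, and PLDP1 is the *Arabidopsis* name of a zeta-type enzyme. All 17 carry the ortholog and lie in the KEGG pathways for glycerophospholipid metabolism and endocytosis. The annotation separates the types: calcium ion binding is listed for 11 of 11 unigenes named PLD1, PLDBETA1 or PLDDELTA and for 0 of 3 named PLDP1, while phosphatidylinositol bisphosphate binding is listed for the 3 PLDBETA1 unigenes only. The remaining 3 members, named CML50, PERK9 and sap-49, entered by their ortholog alone. These names stand for a calmodulin-like protein, a proline-rich receptor-like kinase and a nematode splicing factor, and none of the 3 has the term phospholipase D activity, which the other 14 have. Name and ortholog thus point to different proteins for these 3, which are described last. A further unigene with that term, comp21010_c0, lies outside the rule because its name is F09G2.8.

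**Figure D1:**
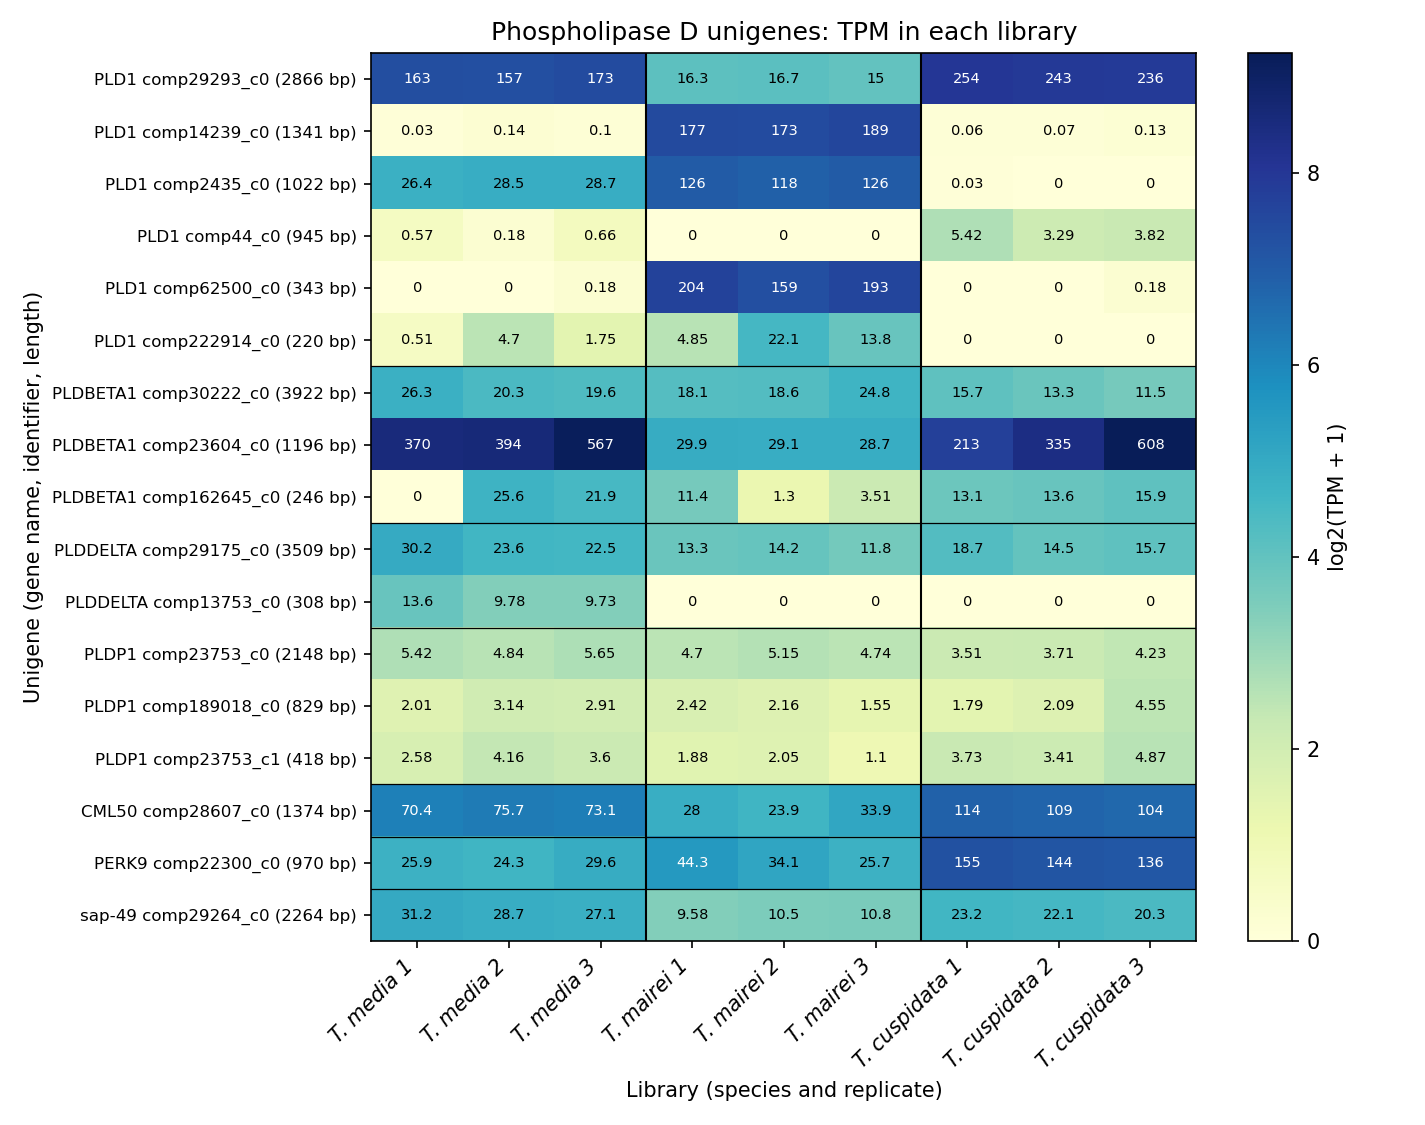
TPM of the 17 phospholipase D unigenes (rows, with gene name and length) in the 9 libraries (columns, by species); colour is log2(TPM + 1) and the printed number is TPM. The PLD1 unigene comp29293_c0 is at 157 to 173 TPM in *T. media*, 15.0 to 16.7 TPM in *T. mairei* and 236 to 254 TPM in *T. cuspidata*, and comp14239_c0 and comp62500_c0 stand at 159 TPM or more in *T. mairei* alone.

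PLD1 was the name with the most reads of the family in all 9 libraries, and the species used different unigenes of it. The 2866 bp unigene comp29293_c0 carried nearly all PLD1 reads in *T. media* and *T. cuspidata*, whereas in *T. mairei* most fell on comp14239_c0 (1341 bp), comp2435_c0 (1022 bp) and comp62500_c0 (343 bp). Added up in CPM, PLD1 differed between species far less than its single unigenes did. In *T. mairei* this sum includes comp14239_c0, chosen for its difference between *T. media* and *T. mairei*, with 52.5 to 54.2% of the PLD1 reads.

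The unigene comp14239_c0 had 0.03, 0.14 and 0.10 TPM in the 3 libraries of *T. media*, 177, 173 and 189 TPM in those of *T. mairei* and 0.06, 0.07 and 0.13 TPM in those of *T. cuspidata*. It thus was near 0 in both other species, with overlapping libraries, and high in every *T. mairei* library. In expected counts, *T. media* had 1.38, 5.82 and 4.57 reads and *T. cuspidata* 2.74, 3.76 and 6.77 reads, against 17013 and 14350 reads in the *T. mairei* libraries with counts. The fitted log2 fold change was -11.93 between *T. media* and *T. mairei*, 11.73 between *T. mairei* and *T. cuspidata* and -0.20 between *T. media* and *T. cuspidata*; since the unigene was chosen for this pattern, no test is given and it is left out of the counts of members called.

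The long PLD1 unigene comp29293_c0 ran the other way, at 163, 157 and 173 TPM in *T. media*, 16.3, 16.7 and 15.0 TPM in *T. mairei* and 254, 243 and 236 TPM in *T. cuspidata*. No libraries of different species overlapped, and the order was *T. cuspidata*, *T. media*, *T. mairei*. It was higher in *T. media* than in *T. mairei* by 2.61 log2 units (SE, the standard error, 0.14, Benjamini-Hochberg adjusted p = 7.3e-06 in the edgeR quasi-likelihood fit). Between *T. mairei* and *T. cuspidata* the value was -3.27 (SE 0.15, adjusted p = 2.2e-06, same test by edgeR). Between *T. media* and *T. cuspidata* it came to -0.66 (SE 0.11, adjusted p = 0.0031 by edgeR), a difference that passed the p but not the fold threshold of 1 log2 unit that a call also required.

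The PLD1 unigene comp2435_c0 was shared by 2 of the species. It had 26.5, 28.5 and 28.7 TPM in *T. media*, 126, 118 and 126 TPM in *T. mairei*, and 0.03, 0 and 0 TPM in *T. cuspidata*. *T. mairei* was highest, *T. media* intermediate and *T. cuspidata* practically without reads, with no overlap between any of them. Its log2 fold change in *T. media* vs. *T. mairei* was -2.82 (SE 0.20, Benjamini-Hochberg adjusted p = 2.4e-05 in the edgeR quasi-likelihood fit). *T. cuspidata* had about 1 read in all, so the ratios to it are 3468 for *T. media* (95% counting interval 622 to 136965) and 24794 for *T. mairei* (4450 to 979323), with edgeR adjusted p = 4.5e-06 and 1.2e-06. Counting intervals cover counting error only.

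The short PLD1 unigene comp62500_c0 followed comp14239_c0. It had 0, 0 and 0.18 TPM in *T. media*, 204, 159 and 193 TPM in *T. mairei* and 0, 0 and 0.18 TPM in *T. cuspidata*. It was high in every library of *T. mairei*, and each other species had about 1 read in all. The *T. mairei* level was 6579 times that of *T. media* (95% counting interval 1181 to 259838) and 6518 times that of *T. cuspidata* (1169.9 to 257446), and edgeR gave adjusted p = 4.5e-06 and 2.6e-06. For *T. media* vs. *T. cuspidata* no difference was detectable at this depth (log2 fold change -0.01, SE 1.07).

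A pair of PLD1 unigenes held few reads. The 945 bp unigene comp44_c0 had 0.57, 0.18 and 0.66 TPM in *T. media*, 0 in the 3 libraries of *T. mairei* and 5.42, 3.29 and 3.82 TPM in *T. cuspidata*. *T. cuspidata* was thus highest and *T. mairei* lowest without overlap, the reverse of comp2435_c0. The *T. media* vs. *T. cuspidata* log2 fold change was -3.20 (SE 0.52, Benjamini-Hochberg adjusted p = 0.0033 in the edgeR quasi-likelihood fit). Against a floor of 3 reads over the *T. mairei* libraries with counts, comp44_c0 was at least 11.9-fold higher in *T. media* and at least 106-fold higher in *T. cuspidata* (edgeR adjusted p = 0.0024 and 0.00024), but limma on log2(TPM + 1) did not call *T. media* vs. *T. mairei* (0.54, adjusted p = 0.096). With 1 library of *T. mairei* left out these limits fell to 5.46-fold and 48.6-fold without replicate 1 and to 6.42-fold and 57.2-fold without replicate 2.

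The smallest PLD1 unigene, comp222914_c0 (220 bp, effective length 33.9 bp), had 0.51, 4.70 and 1.75 TPM in *T. media*, 4.85, 22.1 and 13.9 TPM in *T. mairei* and 0 in the 3 libraries of *T. cuspidata*. These TPM rest on few reads, 11 in *T. media* and 69 in the *T. mairei* libraries with counts. It was at least 35.8-fold higher in *T. mairei* than in *T. cuspidata* (edgeR adjusted p = 0.0060). Of those 69 reads, 55 were in *T. mairei* replicate 2; the limit was 13.4-fold without it, 62.2-fold without replicate 1, and 23.3- and 23.4-fold without *T. cuspidata* replicate 2 or 3. In *T. media* vs. *T. mairei* the log2 fold change of -3.24 (SE 1.08, adjusted p = 0.045 by edgeR) lost the call in 8 alternatives, among them leaving out *T. media* replicate 1 or 3 or either *T. mairei* library with counts, where the adjusted p was 0.058 to 0.40.

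**Figure D2:**
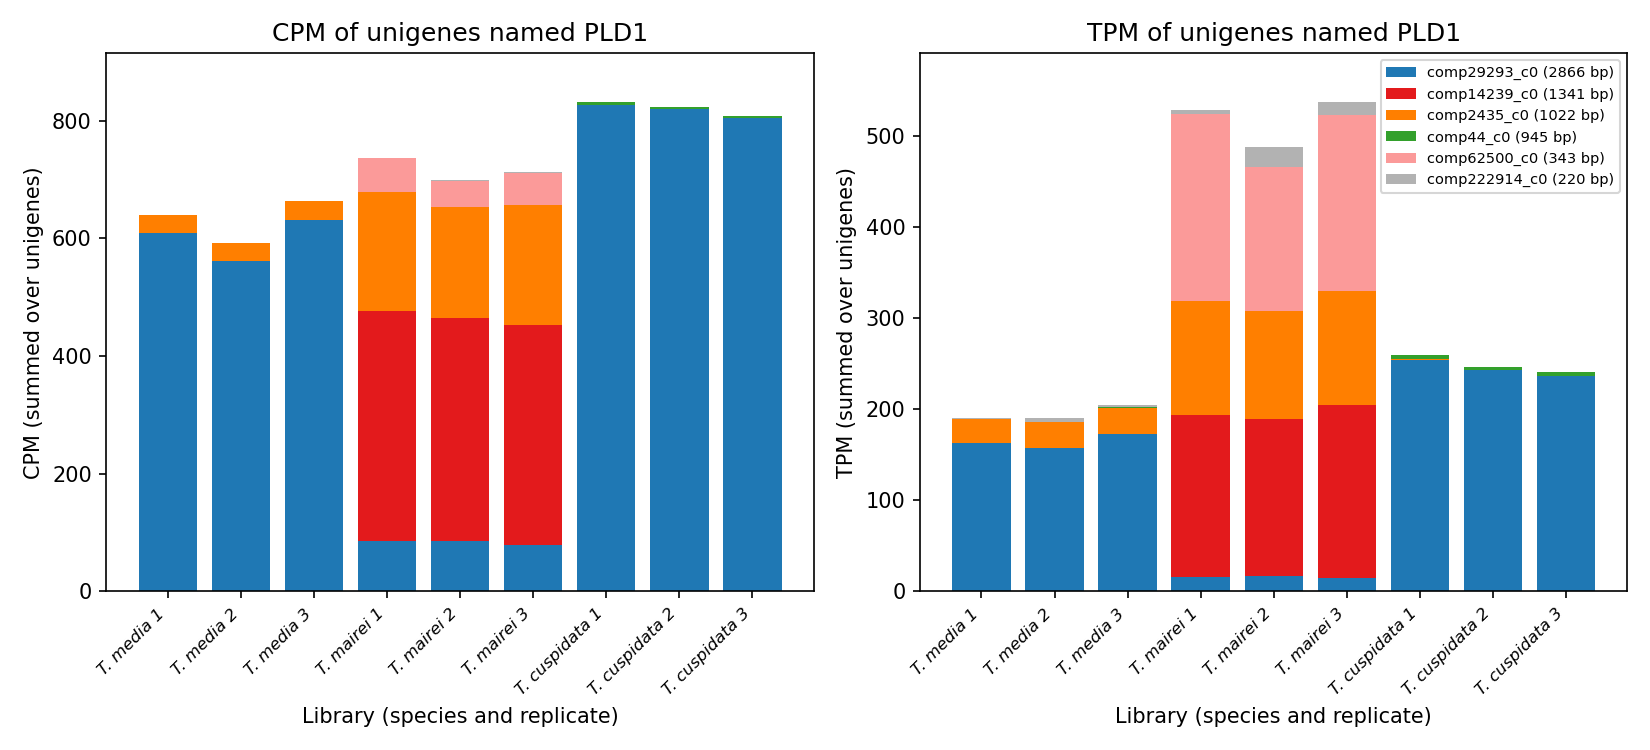
CPM (left) and TPM (right) of the 6 PLD1 unigenes, stacked for each of the 9 libraries; each colour is 1 unigene and the bar height is their sum. The left bars reach 593 to 664 in *T. media*, 699 to 737 in *T. mairei* and 808 to 832 in *T. cuspidata*, while the right bars of *T. mairei*, at 488 to 537 TPM, stand above the others.

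As a share of PLD1 reads, comp29293_c0 held 94.6 to 95.1% in *T. media*, 11.1 to 12.4% in *T. mairei* and 99.4 to 99.6% in *T. cuspidata*. The unigenes comp14239_c0, comp2435_c0 and comp62500_c0 together held 4.78 to 5.34% in *T. media*, 87.4 to 88.8% in *T. mairei* and 0.0103 to 0.0228% in *T. cuspidata*. The lengths of these 3 add up to 2706 bp, beside 2866 bp for comp29293_c0. Whether they are stretches of one transcript or separate genes was not tested, since unigene sequences were not used here, and near-identical copies could also share reads.

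All PLD1 unigenes together had 640, 593 and 664 CPM in *T. media*, 737, 699 and 713 in *T. mairei* and 832, 823 and 808 in *T. cuspidata*. The libraries of the 3 species did not overlap, yet the means differed by small ratios, 0.770 for *T. media* over *T. cuspidata*, 0.883 for *T. media* over *T. mairei* and 0.872 for *T. mairei* over *T. cuspidata*. Of the *T. mairei* sums, comp14239_c0 alone gave 391, 379 and 374 CPM. Both ratios with *T. mairei* are this near to even only with that unigene, chosen for its values, included. Summed TPM gave another order, with 195 ± 8.05 in *T. media*, 518 ± 26.2 in *T. mairei* and 249 ± 9.97 in *T. cuspidata* (SD, n = 3 each). The ratio of *T. mairei* over *T. cuspidata* was thus 2.08 in TPM but 0.872 in CPM. A sum of TPM counts each unigene per its own length, so it also depends on the number and lengths of the unigenes under a name. Whether this set the units apart for PLD1 was not tested.

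Unigenes called in opposite directions under 1 name were common in these libraries. In a tally added after the PLD1 values were seen, 68 of 216 gene names with 6 or more tested unigenes (31.5%) had calls in both directions in *T. media* vs. *T. cuspidata*, 116 (53.7%) in *T. media* vs. *T. mairei* and 129 (59.7%) in *T. mairei* vs. *T. cuspidata*. PLD1, with 6 unigenes, was among these names in each comparison. How many names had calls both ways in every comparison at once was not counted.

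Among the PLD names, PLDBETA1 came second in reads. It is an enzyme that in *Arabidopsis* binds phosphatidylinositol bisphosphate as a cofactor. Its unigene comp23604_c0 had 370, 395 and 567 TPM in *T. media*, 29.9, 29.1 and 28.7 TPM in *T. mairei* and 213, 335 and 608 TPM in *T. cuspidata*. *T. mairei* lay far below, and the other species overlapped widely. This unigene had the highest mean TPM of the family, 286 over all libraries, with 4 transcripts and an effective length of 316 bp for a full length of 1196 bp, so its rank rests on a short effective length. *T. media* exceeded *T. mairei* by 2.67 log2 units (SE 0.42, Benjamini-Hochberg adjusted p = 0.0011 in the edgeR quasi-likelihood fit) and the fold change of *T. mairei* over *T. cuspidata* was -2.79 (SE 0.42, adjusted p = 0.00073 by edgeR). *T. media* vs. *T. cuspidata* gave -0.12 (SE 0.33, adjusted p = 0.83 by edgeR), within the spread of the libraries.

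The longest unigene of the family, comp30222_c0 (PLDBETA1, 3922 bp), showed no such drop in *T. mairei*. It had 26.3, 20.3 and 19.6 TPM in *T. media*, 18.1, 18.6 and 24.8 TPM in *T. mairei* and 15.7, 13.3 and 11.5 TPM in *T. cuspidata*. *T. cuspidata* was lowest without overlap, and the other species overlapped. The *T. mairei* vs. *T. cuspidata* log2 fold change of 1.03 (SE 0.15, adjusted p = 0.00071 by edgeR) was just past the fold threshold and was not called in 6 alternatives, among them leaving out *T. cuspidata* replicate 3, where it was 0.93. For *T. media* it was 0.60 against *T. cuspidata* and -0.43 against *T. mairei* (edgeR adjusted p = 0.012 and 0.045), both under the fold threshold. The third PLDBETA1 unigene, comp162645_c0 (246 bp), spanned 0 to 25.6 TPM within *T. media*, 1.30 to 11.5 TPM within *T. mairei* and 13.1 to 15.9 TPM in *T. cuspidata*, and passed no test.

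PLDDELTA, which in *Arabidopsis* sits at the plasma membrane and is linked to freezing tolerance, was represented by a long and a short unigene. The long one, comp29175_c0 (3509 bp), ranged over 22.5 to 30.2 TPM in *T. media*, 11.8 to 14.2 TPM in *T. mairei* and 14.5 to 18.7 TPM in *T. cuspidata*. The TPM of *T. media* were highest without overlap, but on the scale of the fit the log2 fold changes were only 0.22 against *T. cuspidata* and 0.12 against *T. mairei*, and *T. mairei* exceeded *T. cuspidata* by 0.10 (SE 0.13 to 0.15, edgeR adjusted p = 0.22 to 0.57). No difference was called for it under any alternative. The short one, comp13753_c0 (308 bp), had 13.6, 9.78 and 9.73 TPM in *T. media* and was listed at 0 in the 6 libraries of *T. mairei* and *T. cuspidata*. With 112 reads in *T. media* it was at least 23.8-fold higher there than in *T. mairei* and at least 37.0-fold higher than in *T. cuspidata* (edgeR adjusted p = 0.0030 and 0.0027). The limit against *T. mairei* was 10.9-fold without its replicate 1 and 12.8-fold without replicate 2, and that against *T. cuspidata* 24.0- and 24.2-fold without its replicate 2 or 3.

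PLDP1, a zeta-type enzyme that in *Arabidopsis* acts in root development, had the fewest reads of the 4 names, 16.5 to 18.6 CPM in *T. media*, 20.6 to 23.0 in *T. mairei* and 10.7 to 15.5 in *T. cuspidata*. The levels of its 3 unigenes lay between 1.1 and 5.65 TPM in every library, and edgeR called none of them. The largest, comp23753_c0 (2148 bp), ranged over 4.84 to 5.65 TPM in *T. media*, 4.70 to 5.15 TPM in *T. mairei* and 3.51 to 4.23 TPM in *T. cuspidata*. It came close to a call in *T. mairei* vs. *T. cuspidata*, with a log2 fold change of 0.99 (SE 0.17, adjusted p = 0.0014 by edgeR), and passed the fold threshold in 4 alternatives. The 418 bp unigene comp23753_c1 was called by limma on log2(TPM + 0.1) alone, at 1.02 for *T. media* over *T. mairei* (adjusted p = 0.023) and -1.24 for *T. mairei* over *T. cuspidata* (adjusted p = 0.0094).

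**Figure D3:**
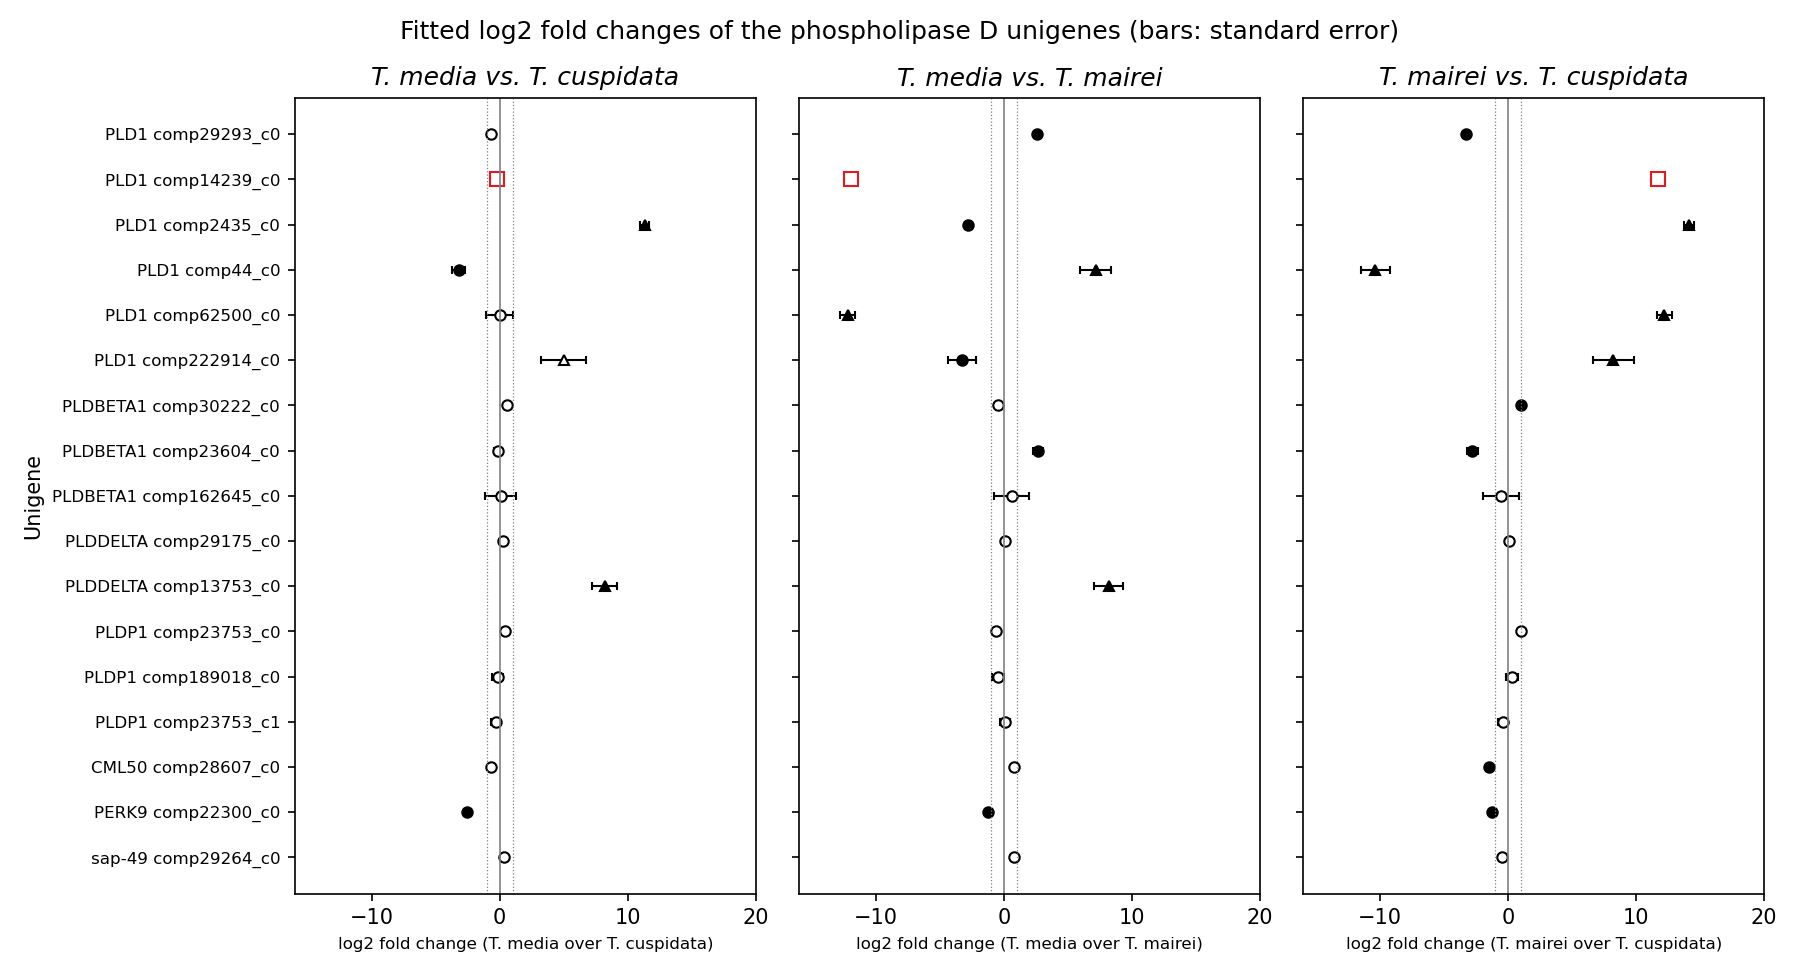
Log2 fold change from the edgeR fit, with a standard error derived from its F statistic, for the 17 unigenes in the 3 comparisons (first-named species over the second, dotted lines at -1 and 1). Filled symbols were called, open ones were not, triangles mark a species with at most 3 reads, where the fitted size depends on the prior count, and the red squares are comp14239_c0, shown without a test; comp13753_c0 is left out where both species are at 0.

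The members that entered by ortholog alone were expressed in every library. CML50 (comp28607_c0) had 70.4, 75.7 and 73.1 TPM in *T. media*, 28.02, 23.9 and 33.9 TPM in *T. mairei* and 114, 109 and 104 TPM in *T. cuspidata*. The species did not overlap, and the log2 fold change of *T. mairei* vs. *T. cuspidata* was -1.45 (SE 0.12, adjusted p = 4.2e-05 by edgeR). *T. media* over *T. mairei* gave 0.79 in edgeR (adjusted p = 0.00098), under the fold threshold, and 1.34 in limma on log2(TPM + 1) (adjusted p = 3.4e-05), which called it. PERK9 (comp22300_c0) had 25.9, 24.3 and 29.6 TPM in *T. media*, 44.3, 34.1 and 25.7 TPM in *T. mairei* and 155, 144 and 136 TPM in *T. cuspidata*. *T. cuspidata* was far above both other species, with log2 fold changes of -2.53 for *T. media* (adjusted p = 1.9e-05) and -1.27 for *T. mairei* (adjusted p = 0.00029, both by edgeR, SE 0.15 and 0.16). *T. media* vs. *T. mairei* overlapped in TPM, and its edgeR value of -1.26 (adjusted p = 0.00030) was -0.34 in limma on log2(TPM + 1) (adjusted p = 0.13). The sap-49 unigene comp29264_c0 lay at 27.1 to 31.2 TPM in *T. media*, 9.58 to 10.8 TPM in *T. mairei* and 20.3 to 23.2 TPM in *T. cuspidata* and was not called by edgeR in any comparison. Limma on log2(TPM + 1) called it lower in *T. mairei*, at 1.41 for *T. media* over *T. mairei* (adjusted p = 7.0e-06) and -1.02 for *T. mairei* over *T. cuspidata* (adjusted p = 4.5e-05), on a scale where all unigenes shift the same way (medians 0.60 and -0.41).

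Counted over the 16 unigenes other than comp14239_c0, all of which passed the filter on low counts, the family was called about as often as unigenes at large. In *T. media* vs. *T. cuspidata*, 4 were called, 2 higher in *T. media* (comp2435_c0 and comp13753_c0) and 2 lower (comp44_c0 and PERK9), beside 25.8% of all 32624 unigenes tested. In *T. media* vs. *T. mairei*, 8 were called, beside 44.3% of all, with 4 higher in *T. media* (comp29293_c0, comp44_c0, comp23604_c0, comp13753_c0) and 4 lower (comp2435_c0, comp62500_c0, comp222914_c0, PERK9). In *T. mairei* vs. *T. cuspidata*, 9 were called, beside 49.3% of all, with 4 higher in *T. mairei* (comp2435_c0, comp62500_c0, comp222914_c0, comp30222_c0) and 5 lower (comp29293_c0, comp44_c0, comp23604_c0, CML50, PERK9). These shares, 25%, 50% and 56.2%, lie near the background and are no result about the family. The median log2 fold change was 0.03 in *T. media* vs. *T. cuspidata* (all unigenes 0.04), 0.12 in *T. media* vs. *T. mairei* (0.02) and -0.21 in *T. mairei* vs. *T. cuspidata* (0.06).

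The libraries of 2 species did not overlap in TPM for 11 of the 16 in *T. media* vs. *T. cuspidata*, 11 in *T. media* vs. *T. mairei* and 14 in *T. mairei* vs. *T. cuspidata*. Over all unigenes tested, 50.5%, 74.6% and 71.4% did not overlap. The comparisons share their libraries pairwise, so their counts are not independent of each other.

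Summed over all 17 unigenes, the family had 1226, 1118 and 1261 CPM in *T. media*, 1126, 1063 and 1128 in *T. mairei* and 1420, 1418 and 1496 in *T. cuspidata*. *T. cuspidata* was highest without overlap and the other species overlapped, with ratios of 0.832 for *T. media* over *T. cuspidata*, 1.09 for *T. media* over *T. mairei* and 0.765 for *T. mairei* over *T. cuspidata*. In TPM the sums were 853 ± 117 in *T. media*, 668 ± 34.1 in *T. mairei* and 965 ± 178 in *T. cuspidata* (SD, n = 3 each), with ratios of 0.884 for *T. media* over *T. cuspidata*, 1.28 for *T. media* over *T. mairei* and 0.692 for *T. mairei* over *T. cuspidata*. Without comp14239_c0 the TPM ratios became 1.75 for *T. media* over *T. mairei* and 0.506 for *T. mairei* over *T. cuspidata*. The CPM ratios became 1.66 and 0.501. That unigene was chosen for its difference between *T. media* and *T. mairei*, so leaving it out had to lower the *T. mairei* sum. RPKM put *T. mairei* above *T. media* without overlap (0.792), while its ratio over *T. cuspidata* was 1.11 with overlapping libraries. The order of *T. mairei* in the summed level thus depends on the unit.

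By name, PLD1 made up 52.2 to 53.0% of family reads in *T. media*, 63.2 to 65.8% in *T. mairei* and 54.0 to 58.6% in *T. cuspidata*. In *T. mairei* the PLD1 reads include those of comp14239_c0, chosen for its difference between *T. media* and *T. mairei*, at 52.5 to 54.2% of them. The *T. mairei* shares of all names thus depend on that choice. Next among the PLD names was PLDBETA1, with 21.0 to 23.8% in *T. media*, 13.3 to 17.0% in *T. mairei* and 11.5 to 19.2% in *T. cuspidata*. PLDBETA1 summed to 270.5, 235 and 300 CPM in *T. media*, 150, 146 and 191 in *T. mairei* and 163, 189 and 286 in *T. cuspidata*, so *T. media* lay above *T. mairei* in every library and the remaining pairs overlapped. The ratio was 1.65 for *T. media* over *T. mairei* and 0.763 for *T. mairei* over *T. cuspidata*. In TPM the PLDBETA1 sums were 482 ± 112 in *T. media*, 55.1 ± 5.45 in *T. mairei* and 413 ± 202 in *T. cuspidata* (SD, n = 3 each), where *T. mairei* lay below both without overlap and the ratios were 8.74 and 0.133. PLDDELTA summed to 62.8 ± 8.40 CPM in *T. media*, 48.3 ± 2.28 in *T. mairei* and 45.6 ± 6.16 in *T. cuspidata* (SD, n = 3 each), and *T. media* overlapped with neither other species. PLDP1 had the other order, 17.5 ± 1.06 CPM in *T. media*, 21.8 ± 1.20 in *T. mairei* and 12.7 ± 2.53 in *T. cuspidata* (SD, n = 3 each), without overlap. In TPM the PLDP1 sums of *T. cuspidata* overlapped with both other species, with ratios of 1.33 for *T. media* over *T. mairei* and 0.807 for *T. mairei* over *T. cuspidata*, so the place of *T. mairei* changes with the unit for this name too.

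**Figure D4:**
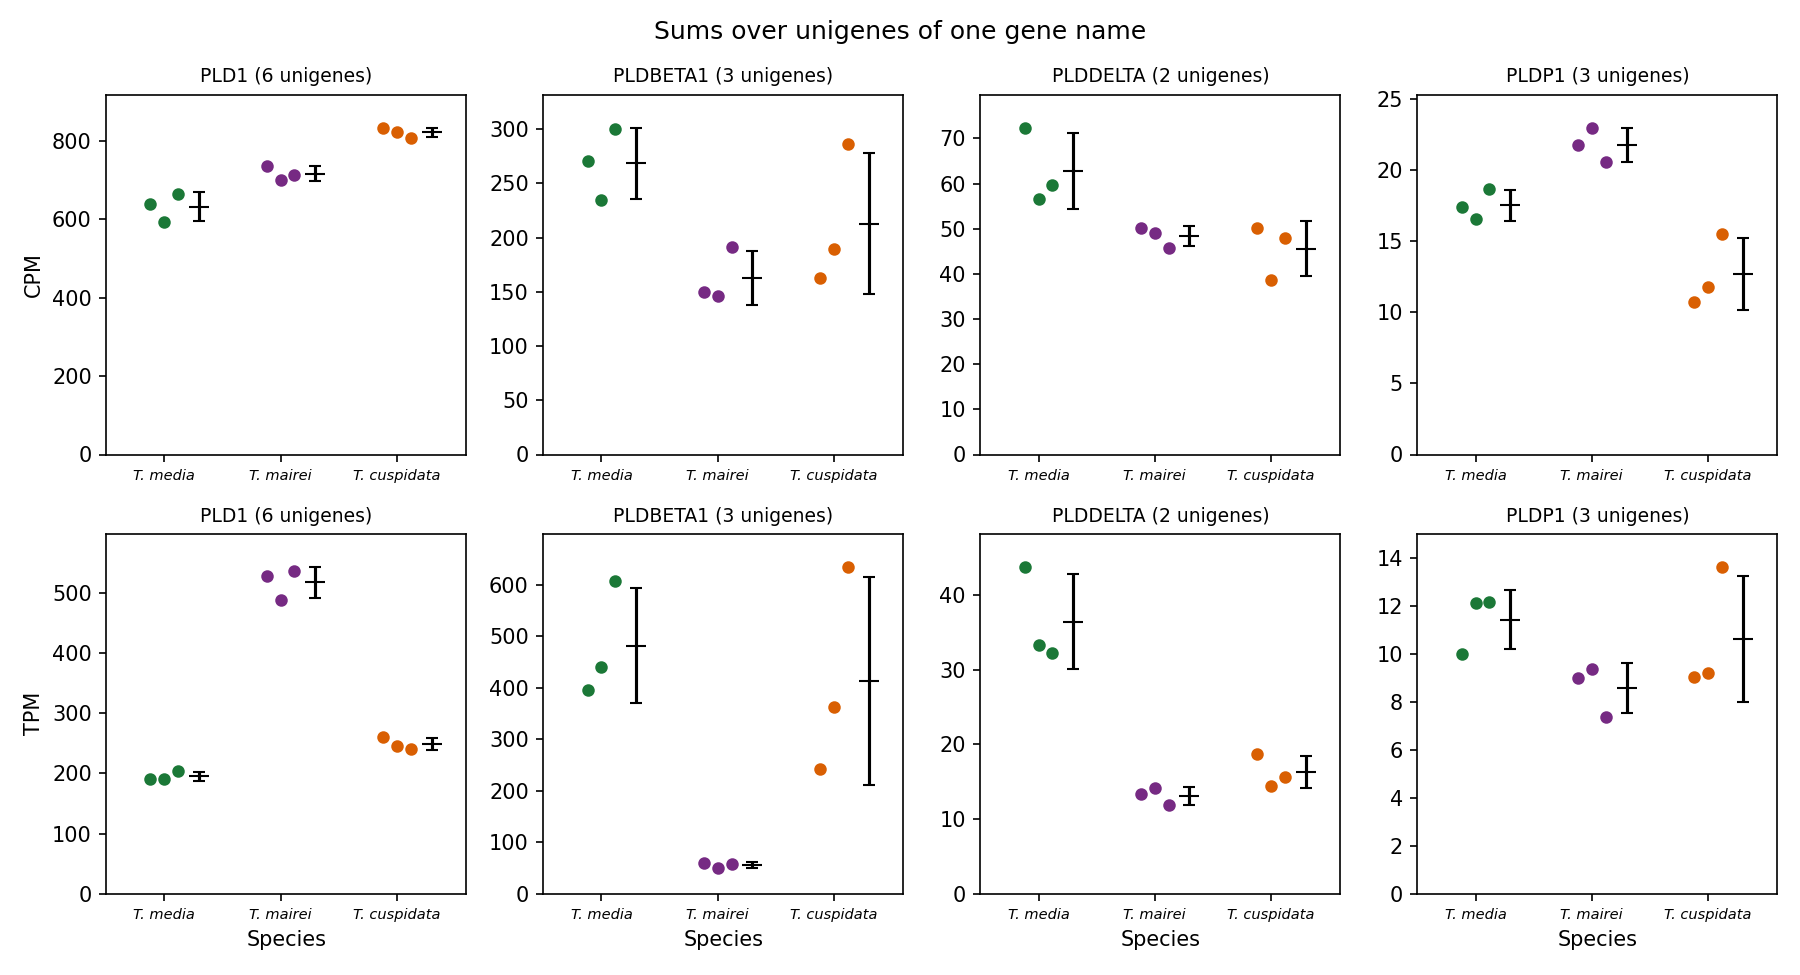
Sums over the unigenes of each PLD name, in CPM (top) and TPM (bottom), by species; points are libraries and the bar beside them is the mean with its SD (n = 3). PLD1 of *T. mairei* lies between the other species in CPM (699 to 737) and above them in TPM (488 to 537), and PLDP1 of *T. mairei* is highest in CPM and lowest on average in TPM.

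Across the 9 libraries, the other PLD unigenes ranged from close likeness to opposition with comp14239_c0. By Pearson's r of log2(TPM + 1), given as a description over libraries of 3 species, comp62500_c0 was the most alike (r = 1.00) and comp29293_c0 the least (r = -0.99), with comp23604_c0 at -0.97, comp222914_c0 at 0.84 and comp2435_c0 at 0.73. Among 13457 named unigenes of at least 1 TPM on average, the 5 most alike were CP12-3 (comp144675_c0, mean 116 TPM in *T. mairei*), At5g06750 (comp118167_c0, 68.8 TPM), ISU1 (comp9352_c0, 100.5 TPM), RPL23A (comp10617_c0, 107 TPM) and TXNL4A (comp112093_c0, 56.7 TPM). All 5 were listed at 0 in every library of *T. media* and *T. cuspidata*, and their r was 1.00. In all, 510 named unigenes (3.79%) reached an r of 0.99, so many unigenes of this co-assembly shared the pattern.

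Phosphatidic acid is also made by diacylglycerol kinases, after phospholipases C have released diacylglycerol, and by acyltransferases from glycerol 3-phosphate. It is consumed by phosphatidate phosphatases and CDP-diacylglycerol synthases. Phosphatidylinositol-phosphate kinases (PIP5K, PI4K and FAB1 names) phosphorylate phosphatidylinositol lipids, and phospholipases A, listed here together with the lipase SDP1, cut acyl chains. These 7 lists held 58 unigenes, all tested. In *T. media* vs. *T. cuspidata* 13 were higher and 4 lower in *T. media* (background 15.7% and 10.1%), in *T. media* vs. *T. mairei* 9 were higher and 11 lower (20.8% and 23.5%), and in *T. mairei* vs. *T. cuspidata* 18 were higher and 4 lower in *T. mairei* (27.8% and 21.5%). The 3 diacylglycerol kinases gave a single call, lower in *T. media* than in *T. mairei*.

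Among the 11 phospholipases C, 8 were higher and 1 lower in *T. mairei* than in *T. cuspidata* (27.8% and 21.5% of all unigenes). Their median log2 fold change was 2.24 beside 0.06 for all unigenes. The 11 phospholipase C unigenes were 204 to 2081 bp long, and whether some are stretches of 1 transcript was not tested. In *T. media* vs. *T. cuspidata* 3 were higher and 2 lower in *T. media* (15.7% and 10.1% of all). Against *T. mairei*, 1 was higher and 4 were lower in *T. media* (20.8% and 23.5%). The PLC2 unigene comp10502_c0 (366 bp) was listed at 0 in *T. media* and in *T. cuspidata* and averaged 51.3 ± 30.7 TPM in *T. mairei* (SD, n = 3), much as comp14239_c0 was distributed. Another PLC2 unigene, comp18836_c0 (1212 bp), averaged 55.9 ± 13.2 TPM in *T. mairei* (SD, n = 3) and was listed at 0 in *T. cuspidata*. In *T. media* this unigene averaged 3.56 ± 6.16 TPM (SD, n = 3), all of it from 1 library. The unnamed phospholipase C unigene comp18568_c0 was lower in *T. media* (38.3 ± 5.36 TPM) than in *T. mairei* (274 ± 14.3 TPM), with a log2 fold change of -3.57 (edgeR adjusted p = 2.5e-05). A unigene named plcN (comp25052_c0), after a bacterial phospholipase C that acts on phosphatidylcholine, was at 15.9 ± 1.54 TPM in *T. media* and 127 ± 2.21 TPM in *T. cuspidata*, which is -3.07 on the log2 scale (adjusted p = 1.9e-05 by edgeR). PLC2 unigene comp17293_c1 was higher in *T. media* (8.20 ± 3.46 TPM) than in *T. cuspidata* (1.22 ± 0.614 TPM), by 2.64 log2 units (edgeR adjusted p = 0.0044).

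The list drawn up for phospholipases A held 2 unigenes named PLA2 and 5 named SDP1, a triacylglycerol lipase of *Arabidopsis* seeds. The SDP1 unigenes were 233 to 1522 bp long, and whether they are stretches of fewer transcripts was not tested. Of the 5 SDP1 unigenes, 4 were higher in *T. media* and 3 in *T. mairei* than in *T. cuspidata* (15.7% and 27.8% of all unigenes). In *T. media*, 2 were lower than in *T. mairei* (23.5% of all). Of the PLA2 unigenes, 1 was called in each comparison, in the same directions. PLA2-II (comp19253_c0), a secreted phospholipase A2, averaged 18.4 ± 6.36 TPM in *T. media*, 59.6 ± 53.8 TPM in *T. mairei* and 1.61 ± 0.607 TPM in *T. cuspidata*. Its log2 fold change was 3.24 for *T. media* vs. *T. cuspidata* and 6.0 for *T. mairei* vs. *T. cuspidata* (edgeR adjusted p = 0.00063 and 2.1e-05), although the *T. mairei* libraries spread widely. SDP1 was likewise higher in *T. media* (5.85 ± 1.36 TPM) and *T. mairei* (7.86 ± 2.06 TPM) than in *T. cuspidata* (0.763 ± 0.139 TPM) at comp9786_c0, by 2.84 and 4.17 log2 units (edgeR adjusted p = 0.00054 and 4.3e-05). At another SDP1 unigene, comp9379_c0, *T. media* was lower than *T. mairei* by a log2 fold change of -2.56 (edgeR adjusted p = 0.00038).

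The enzymes that act on phosphatidic acid itself were mixed. The lipid phosphate phosphatase LPP2 at comp28902_c0 averaged 12.8 ± 1.83 TPM in *T. media*, 16.7 ± 3.94 TPM in *T. mairei* and 2.95 ± 0.240 TPM in *T. cuspidata*, with log2 fold changes of 2.04 and 3.28 over *T. cuspidata* (edgeR adjusted p = 6.8e-05 and 4.0e-06). A second LPP2 unigene, comp24062_c0, was lower in *T. media* than in *T. cuspidata* (log2 fold change -1.05, adjusted p = 0.0023 by edgeR), the same kind of opposition within a name as in PLD1. The CDP-diacylglycerol synthase cdsA (comp25506_c0) was higher in *T. media* than in *T. mairei* by 1.01 log2 units (edgeR adjusted p = 0.00071), the only call among the 3 unigenes of its list.

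Among 9 acyltransferases, LPAT5 (comp20168_c0), which adds the second acyl chain to make phosphatidic acid, averaged 2.66 ± 0.804 TPM in *T. media*, 9.62 ± 0.957 TPM in *T. mairei* and 31.9 ± 13.2 TPM in *T. cuspidata*. It was called in every comparison, at -3.64 and -2.51 in *T. media* against *T. cuspidata* and against *T. mairei*, and at -1.14 in *T. mairei* against *T. cuspidata* (edgeR adjusted p = 0.00022, 0.00074 and 0.029). GPAT6 (comp27571_c0), which in *Arabidopsis* serves cutin synthesis, was higher in *T. media* than in *T. cuspidata* by 1.35 log2 units, and LPAT2 (comp22926_c0) was lower in *T. mairei* than in *T. cuspidata*, at -1.19 (edgeR adjusted p = 0.0023 and 0.0012). An unnamed glycerol 3-phosphate acyltransferase unigene, comp28572_c0, was higher in *T. media* than in *T. mairei* by 1.85 log2 units (edgeR adjusted p = 0.00017).

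The 22 phosphatidylinositol-phosphate kinases had 2 calls in *T. media* vs. *T. cuspidata*, 5 in *T. media* vs. *T. mairei* and 6 in *T. mairei* vs. *T. cuspidata*, smaller shares than the 25.8%, 44.3% and 49.3% of all unigenes. PIP5K9 (comp22753_c0) was higher in *T. media* (7.45 ± 0.302 TPM) than in *T. cuspidata* (2.29 ± 0.478 TPM), by 1.62 log2 units (edgeR adjusted p = 0.00093), and PIP5K1 (comp124900_c0) by 1.29 (edgeR adjusted p = 0.040). In *T. media* vs. *T. mairei*, PIP5K2 (comp11346_c0) and PIP5K9 (comp22753_c1) were higher in *T. media*, by 3.11 and 2.27 log2 units (edgeR adjusted p = 0.0087 and 0.049). PIP5K2 was also lower in *T. mairei* than in *T. cuspidata* (-1.97), while FAB1A (comp13234_c0) was higher in *T. mairei* (1.98, edgeR adjusted p = 0.047 and 0.044).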

How the data were processed

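Per the study's methods, the authors co-assembled reads of the 3 species with Trinity 2.4.0; the aligner and counter are not given in the sources used here. The deposited tables give expected counts beside TPM in 8 libraries; for *T. mairei* replicate 3 the authors deposited RPKM in place of counts. Expected counts were rounded and tested with edgeR 4.0.16 (R 4.3.3): filterByExpr by species, TMM factors of 0.933 to 1.157, 1 mean per species, quasi-likelihood test, Benjamini-Hochberg adjustment over 32624 unigenes. A call needed an absolute log2 fold change above 1 and an adjusted p below 0.05. The SE was derived as the absolute log2 fold change divided by the square root of the F statistic of the quasi-likelihood test. CPM are counts scaled to the library total; those of *T. mairei* replicate 3 were recovered from RPKM at a total of 37841500 reads, at which 98.0% of 1979 low values were whole reads to a tolerance of 0.1. Floors are 3 reads over a species, and counting intervals are exact at 95%.

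The members and lists were chosen with earlier results of these data known. Members named with every library are comp14239_c0, those called in a comparison and the 5 of highest mean TPM; in the other lists up to 2 called unigenes per comparison, with the largest fold change and species that do not overlap, are named. The Niemann-Pick protein NPC1 and the oligosaccharyl transferase DAD1 were dropped from the lists by their ortholog text. Alternatives were DESeq2 1.42.0, limma 3.58.1 on log2(TPM + 1) and log2(TPM + 0.1), library sizes only, other filters, fewer libraries, a replicate block and name-only members. The scripts were tested on simulated data.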

Additional observations from a re-analysis of the deposited data

How the results depend on the processing

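The numbers of members called stayed within 3 to 5 in *T. media* vs. *T. cuspidata*, 6 to 10 in *T. media* vs. *T. mairei* and 7 to 10 in *T. mairei* vs. *T. cuspidata* over the alternatives. Without each library in turn they were 4 to 4, 7 to 8 and 9 to 10. With a replicate block they were 4, 7 and 9; the replicate numbers did not pair the samples (correlations of -0.05 to 0.04 between same-numbered libraries). Of 849 values of single unigenes under an alternative, 813 kept their status as called or not called, 19 lost a call, 17 gained one and 0 turned a called direction. Values called in neither fit were not compared by sign, and some changed it. For PLDP1 comp189018_c0 in *T. media* vs. *T. mairei*, edgeR gave -0.47 and limma on log2(TPM + 1) 0.27. Among the calls gained, PLDP1 comp23753_c0 in *T. mairei* vs. *T. cuspidata* was called by DESeq2 (1.05) and with the replicate block (1.07).

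The ratio of summed TPM was less stable. For *T. media* over *T. mairei* it was 1.75 without comp14239_c0, 0.792 in RPKM, 0.961 in counts with TMM factors and 1.09 in CPM. For *T. mairei* over *T. cuspidata* it was 0.506 without comp14239_c0, 0.863 by gene name only and 1.11 in RPKM. The direction of the shift without comp14239_c0 was fixed by how that unigene was chosen. Leaving out libraries gave 0.815 to 0.986 for *T. media* over *T. cuspidata*, 1.18 to 1.34 for *T. media* over *T. mairei* and 0.645 to 0.772 for *T. mairei* over *T. cuspidata*. In CPM, an alternative added after the data were seen, the order turned for PLDP1 in *T. media* over *T. mairei* (0.804), and in *T. mairei* over *T. cuspidata* for PLD1 (0.872), PLDDELTA (1.06) and PLDP1 (1.72). TPM and RPKM divide by unigene length and CPM do not, but TPM and RPKM also differed from each other in the summed ratios. What set the units apart was not tested. Unigenes of 220 to 308 bp rest on few reads, and their TPM are imprecise.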
